A study of Drosophila melanogaster with 4 samples.

Results

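The regions described here are the LSD1-enriched stretches on 3R, the right arm of chromosome 3 of Drosophila melanogaster, outside the 2 Mb next to the centromere. Members were the regions of the authors' combined list that lie on 3R and start above position 2000000 (all positions are those of genome release 5). This gave 1831 of the 9018 regions of the list, over 25.9 Mb of sequence. The last region outside the boundary was 3R:1993446-1994712, enriched 1.28-fold, and the first inside was 3R:2008458-2010250, at 1.27-fold. No region lay across the boundary, so nothing was split by it.

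All samples were wild-type embryos of the strain Oregon-R (Oregon-R-modENCODE) at 14 to 16 h of development, with no other treatment or allele in the labels. Chromatin crosslinked with formaldehyde was precipitated with the antibody Q3430 against LSD1 and sequenced (ChIP-seq) in 2 replicates, and 2 input samples of genomic DNA served as background, 1 for each ChIP. The material is whole embryos, so a region can come from a few cells with strong binding or from many with weak binding, and these cannot be told apart. Besides the combined list, each ChIP replicate has a list of its own, with 792 regions on the same part of 3R in replicate 1 and 537 in replicate 2. The lists give a start, an end and 1 score per region, and the read depth per sample is unknown. Whether the replicates were separate embryo collections is not stated in the labels, so differences between them may be technical. The score is on a log2 scale and is given below as a fold, on a scale of its own in each list. There is 1 list per ChIP sample, so no test between groups was possible, and the values below are descriptions.

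LSD1 is a histone demethylase that takes methyl groups off lysine 4 of histone H3, a mark of active and primed promoters and enhancers. In the fly it is encoded by Su(var)3-3, a gene found through its effect on the silencing of genes placed next to heterochromatin, and it works together with the corepressor CoREST. The arm 3R is one of the large autosomal arms, gene-rich along its euchromatic part, and carries both Hox gene complexes. No annotation or sequence of release 5 was used here, so regions are given by position, without genes or letters.

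LSD1 regions ran along the whole arm, close together and mostly shallow. They covered 3.95 Mb, or 15.3% of the sequence considered, or 70.7 regions in each Mb (95% exact Poisson interval from 67.5 to 74.0, which covers counting error only). The replicate 1 list covered 7.65% with 30.6 regions per Mb, and the replicate 2 list covered 4.15% with 20.7 per Mb. Widths in the combined list had a median of 1633 bp, quartiles of 1208 and 2293 bp and a range from 1001 to 27777 bp. Median enrichment was 1.34-fold, with quartiles of 1.31 and 1.39, so 50% of the regions lay within a narrow band of fold. At the other end, 45 regions (2.46%) exceeded 2-fold, against 4.56% of all regions of the series, and 10 exceeded 4-fold. The series also includes the centromere ends, which are left out here. On the other large arms without these ends the share was 2.63% to 4.93%. The region nearest the end of the arm was 3R:27893466-27894674, held by replicate 1 only, at a distance of 10.4 kb from the last base.

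The number of regions per 1 Mb window varied 2.55-fold along the arm. Over the 25 full windows above position 2000000, the combined list had between 42 and 107 regions, with a median of 71. Replicate 1 had between 12 and 55 (median 31) and replicate 2 between 9 and 49 (median 20). The part nearer the centromere, up to 14952526, had 947 regions and the remaining part 884, or 73.1 and 68.2 per Mb. Replicate 1 gave 32.0 and 29.2 per Mb for these parts and replicate 2 gave 22.8 and 18.7. Each list thus had somewhat fewer regions per Mb in the part farther from the centromere. These parts are far longer than a window, so their difference cannot be set against the changes from window to window.

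**Figure D1:**
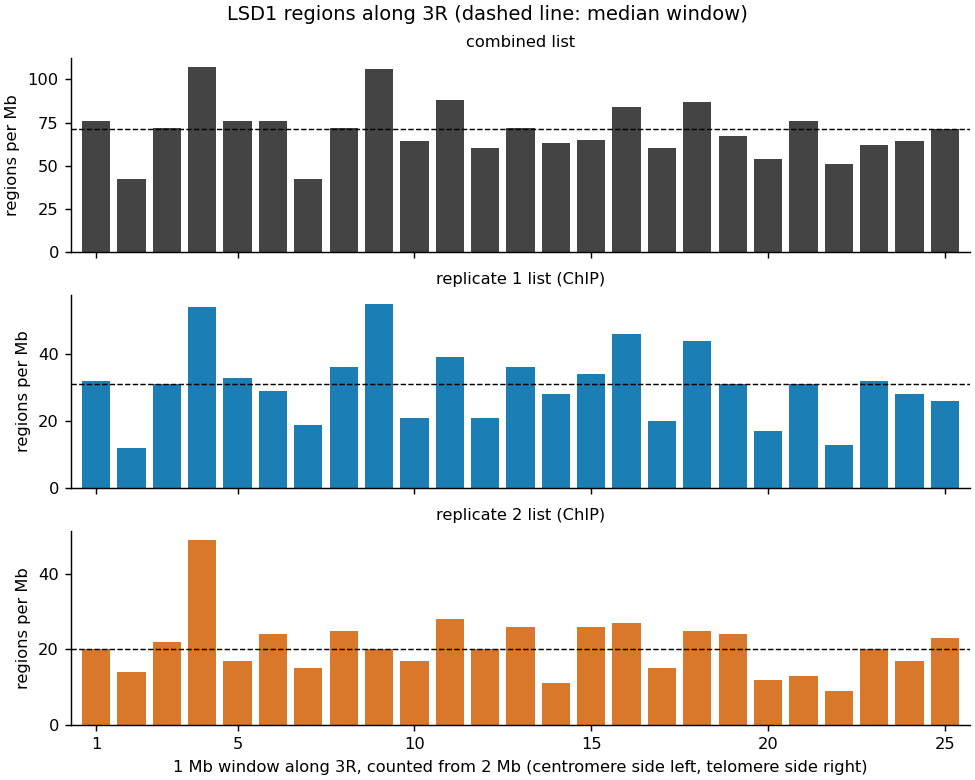
Regions per Mb in 25 windows of 1 Mb along 3R, counted from 2 Mb, for the combined list (top), replicate 1 (middle) and replicate 2 (bottom). Window 4 (5 to 6 Mb) stands highest in the top and bottom panels, at 107 and 49, while window 9 (10 to 11 Mb) reaches 106 and 55 in the top and middle panels and 20, the median, in the bottom one.

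Dense and sparse windows were partly the same in both replicates. The window with most regions was 3R:5000001-6000000, where the combined list had 107, replicate 1 had 54 and replicate 2 had 49. It also had the most regions of 5 kb or wider, 14 of them, and 31.2% of its bases were covered. The next, 3R:10000001-11000000, had 106 in the combined list and 55 in replicate 1, but 20 in replicate 2, which is the median window of that list. Here the density of the combined list went with replicate 1 and not with replicate 2. The third, 3R:12000001-13000000, had 88 combined, 39 in replicate 1 and 28 in replicate 2. Fewest regions were found in 3R:3000001-4000000 (42, 12 and 14) and 3R:8000001-9000000 (42, 19 and 15), both low in all 3 lists. After these came 3R:23000001-24000000, with 51, 13 and 9. In this last window none of the 13 regions of replicate 1 shared a base with any of the 9 of replicate 2, and 0 of its 51 combined-list regions were held by both, whereas in every other full window between 11.1% and 28.6% were. Over the 25 windows the counts of the replicates had a Spearman's rho of 0.77 and a Pearson's r of 0.72, which describe windows of the same 2 libraries.

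The window counts did not say where enrichment was strong. Between the number of regions in a window and the number above 2-fold, Spearman's rho was 0.02 over the 25 windows. The densest window held 2 such regions, and the window with most of them, 3R:14000001-15000000, held 5 among 72 regions. With the number of regions of 5 kb or wider, in contrast, rho was 0.73.

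At a finer scale, each of the 103 windows of 250 kb held at least 5 regions of the combined list and at least 1 of each replicate list. The fullest was 3R:10500001-10750000 with 40 regions, followed by 3R:6250001-6500000 with 39 and 3R:5750001-6000000 with 34. The emptiest were 3R:15750001-16000000 and 3R:18750001-19000000 with 5 each. In the latter, 2 regions were called in each replicate list, and none of them met a region of the other list. On the arm 44.6% of replicate 1 regions and 69.8% of replicate 2 regions met one of the other list. With 2 regions per list, the window cannot be told apart from these shares.

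Spacing along the arm was uneven. The median gap between neighbouring regions was 4806 bp, with quartiles of 1190 and 14273 bp, and 34.4% of the 1830 gaps were shorter than 2 kb. In contrast, 94 gaps exceeded 50 kb and together made up 33.3% of the empty sequence between regions. The SD of the gaps was 1.60 times their mean, and 1.55 times in replicate 1 and 1.19 times in replicate 2. Median gaps were 9965 bp in replicate 1 and 26593 bp in replicate 2, with 24.0% and 9.70% of gaps below 2 kb. Replicate 2 therefore had its regions farther apart, and its gaps varied less relative to their mean. Whether its counts per 1 Mb window were more even depended on the measure. They varied 5.44-fold, against 4.58-fold in replicate 1 and 2.55-fold in the combined list, and such a ratio rises readily where counts are low. The variance of the counts was 3.08 times their mean in replicate 2, 4.09 times in replicate 1 and 3.70 times in the combined list.

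**Figure D2:**
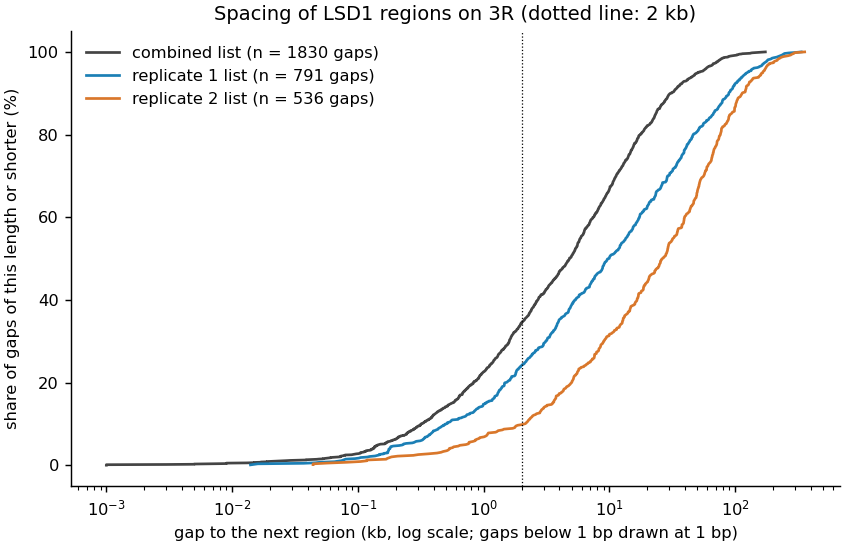
Cumulative share of gaps between neighbouring LSD1 regions on 3R (vertical axis, percent) by gap length in kb (log scale) for the combined list, replicate 1 and replicate 2. At the dotted line of 2 kb the curves stand at 34.4%, 24.0% and 9.70%.

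Many regions formed runs. When regions less than 2 kb apart are joined, the 1831 regions become 1202 groups, of which 848 are single regions and 354 are runs of 2 or more that hold 53.7% of all regions. There were 32 runs of 5 or more regions, with 199 regions in all. The longest run spanned 85.7 kb at 3R:5690790-5776446, with 15 regions covering 92.2% of it, and lies in the densest window. Replicate 1 called 9 regions in it over 61.2% of its length, and replicate 2 called 11 over 26.0%. The next, 3R:12023892-12087190, spanned 63.3 kb with 8 regions. Of the longest 5 it was the one on which the replicates differed least in extent, with 71.6% of it covered in replicate 1 and 63.3% in replicate 2. The run at 3R:9798104-9858700 (60.6 kb, 10 regions) was covered to 71.8% and 31.5%. The remaining runs among the longest 5 were 3R:17657682-17690664 (33.0 kb) and 3R:17404962-17435222 (30.3 kb). Replicate 2 covered 10.9% and 14.9% of these, against 64.5% and 67.3% in replicate 1. Regions in runs were wider than single ones, with medians of 1793 and 1495 bp, but no stronger, with medians of 1.34-fold and 1.35-fold.

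Empty stretches were long in only a few places. The combined list left 16 stretches over 100 kb on the arm, 2.01 Mb in all, and 13 of these also contained no whole region of either replicate. The other 3 contained 1 region of replicate 2 each. The longest was 3R:6784299-6957887 (174 kb), inside which replicate 2 had a region of 1.45-fold. Next came 3R:23588821-23749809 (161 kb), 3R:23974373-24127871 (153 kb), 3R:3154589-3299383 (145 kb) and 3R:8546125-8682325 (136 kb), with no whole region of any list inside. Of these 5 stretches, all but the longest begin in the 3 sparsest windows. The longest piece of 3R that no base of any region touched was 3R:23588917-23749809, 161 kb. The emptiest stretch of the replicate lists differed. It was 3R:23815956-24151049 (335 kb) in replicate 1, where replicate 2 had 2 regions, and 3R:11261895-11618460 (357 kb) in replicate 2, where replicate 1 had 8 regions and the combined list 19.

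Width and enrichment in the combined list went together differently below and above 2 kb. Among the 1221 regions narrower than 2 kb, the median fell from 1.36-fold at 1000 to 1199 bp to 1.29-fold at 1600 to 1799 bp and was 1.31-fold at 1800 to 1999 bp (Spearman's rho -0.49 across regions). From 2 kb up rho was 0.16 over 610 regions. The lowest fold also changed with width, from 1.23 at 1000 to 1199 bp to 1.08 at 1600 to 1799 bp. It was 1.13 at 1800 to 1999 bp and 1.32 at 2000 to 2199 bp. The threshold of the caller is unknown, and its part in these changes was not tested. Of the 156 regions above 1.5-fold, 150 were 2 kb or wider, and 5 of the remaining 6 were under 1200 bp. In the replicate lists, each on its own fold scale, 360 of 482 such regions in replicate 1 and 213 of 327 in replicate 2 were 2 kb or wider. There the cut lies below the median of 1.53-fold in each list, so it takes in most regions and is not a like comparison. Above 2-fold, 1 of 45 regions was narrower than 2 kb in the combined list, 1 of 51 in replicate 1 and 0 of 69 in replicate 2. This cut takes in unlike shares of the lists too, 2.46%, 6.44% and 12.8%. Agreement of the replicates changed at the same width. Both replicates held 7.91% of the 177 regions of 1800 to 1999 bp and 53.8% of the 119 regions of 2000 to 2199 bp. The share then lay between 27.0% and 41.9% in each step of 200 bp up to 2999 bp.

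**Figure D3:**
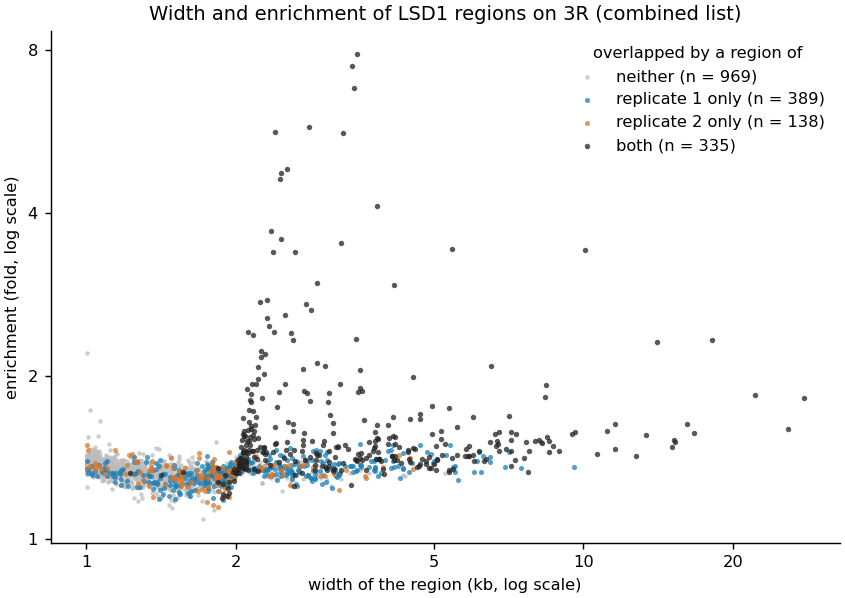
Width (kb, log scale) against enrichment (fold, log scale) of the 1831 LSD1 regions on 3R, coloured by the replicate lists that overlap them. Black points, regions held by both replicates, are few below 2 kb and frequent from there on. The strongest, at 7.85-fold, is 3507 bp wide, and a low band of black and blue points runs on to wider regions, the widest of 27.8 kb being black.

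The strongest regions were wider than most and far narrower than the broadest. Those above 4-fold were 2401 to 3851 bp wide, above the upper quartile of the arm, and every one met exactly 1 region in each replicate list. The highest was 3R:15287642-15291148, which the combined list gave as 7.85-fold, replicate 1 as 7.79-fold and replicate 2 as 9.17-fold. Its replicate regions were 3R:15287971-15291126 and 3R:15287954-15291068, whose starts lie within 20 bp of each other and whose ends within 60 bp, and it ranked second on this arm in each replicate list. Weaker regions adjoin it on both sides, 231 bp before and 19 bp after. The next, 3R:19138880-19142306, stood alone, with gaps of 18.9 and 13.0 kb. Its fold was 7.47, against 6.99 in replicate 1 and 10.4 in replicate 2, where no region of the arm scored higher. The replicates differed in its right edge, which lay at 19142184 in replicate 1 and 19141429 in replicate 2. The third was 3R:14397528-14400988, with folds of 6.82 in the combined list, 6.77 in the first replicate list and 7.09 in the other, and an empty 71.2 kb before it.

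Of the regions that followed, 3R:18187038-18189838 had a fold of 5.77, against 5.49 (replicate 1) and 6.37 (replicate 2). At 3R:25867798-25870198 the folds were 5.66 combined, 5.13 and 6.40. At 3R:9485020-9488308 the folds were 5.62 combined, 5.34 and 6.35. The order of these 3 regions differed between the lists, and their values lay close together. The remaining 4 were 3R:7919298-7921834 (4.83-fold), 3R:7059668-7062130 (4.75-fold), 3R:12228276-12230726 (4.61-fold) and 3R:20874048-20877898 (4.11-fold). All 10 ranked 12 or higher among the 792 regions of replicate 1 and 11 or higher among the 537 of replicate 2.

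Strong regions were scattered. The 45 above 2-fold amounted to 1.74 per Mb, with a median of 334 kb from one to the next. The first started at 4353882, so the 2.35 Mb before it had none, and the longest stretch without one ran for 3288 kb between 3R:20951958-20954726 and 3R:24242576-24244826. Closest together were 3R:14524000-14526214 (2.08-fold) and 3R:14530754-14533362 (2.33-fold), 4.54 kb apart, and 3 other pairs lay within 20 kb. The part of the arm nearer the centromere had 30 of them and the remaining part 15. Both replicates held 44 of the 45, against 18.3% of all regions of the arm. The combined list comes from the same replicates, so this is not independent support for these regions.

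Broad regions were somewhat more enriched than the arm as a whole, and mostly far below its strongest regions. There were 97 regions of 5 kb or wider, 5.30% of the regions and 20.1% of the covered bases, with a median of 1.46-fold against 1.34-fold for all, and 5 of them exceeded 2-fold. In this group 17 were 10 kb or wider, with a median of 1.58-fold, and 3 of these exceeded 2-fold. Replicate 1 held 98.97% of the 97 and replicate 2 held 79.4%. The replicates differed more in how much of each region they covered. Replicate 1 covered more bases than replicate 2 in 94 of the 97, with medians of 84.7% and 31.0% of the length. Among the 10 regions above 4-fold this was so in 3, and the medians were 93.2% and 97.3%. In its own list replicate 1 had 51 regions of 5 kb or wider on the arm and replicate 2 had 5. The longer list of replicate 1 and its wider coverage moved together, and their part in this difference was not tested.

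The 5 widest regions show this in detail. The widest, 3R:12056386-12084162, spanned 27777 bp at 1.82-fold. Replicate 1 called 2 regions in it over 96.1% of the length and replicate 2 called 5 over 93.4%, with highest values of 2.00-fold and 1.98-fold, so both replicates marked it nearly end to end. In 3R:5693444-5719296 (25853 bp, 1.60-fold) the coverage was 88.2% and 49.7%. Its strongest part was in the same place in both, 3R:5707082-5711448 at 2.23-fold in replicate 1 and 3R:5708141-5710256 at 1.94-fold in replicate 2. In 3R:5242914-5265124 (22211 bp, 1.84-fold) replicate 1 called 1 region over 99.3% of the length and replicate 2 called 3 over 47.1%. In the region 3R:9829356-9847550 (18195 bp, 2.33-fold) replicate 2 called a separate narrow region, 3R:9836780-9840346, of 3567 bp at 4.56-fold. It lay inside a single replicate 1 region of 17755 bp at 2.55-fold. That region has 1 score for its whole length, so whether replicate 1 has a narrow peak there too cannot be told. In 3R:3930818-3947542 (16725 bp, 1.57-fold) the coverage was 98.4% and 25.0%.

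**Figure D4:**
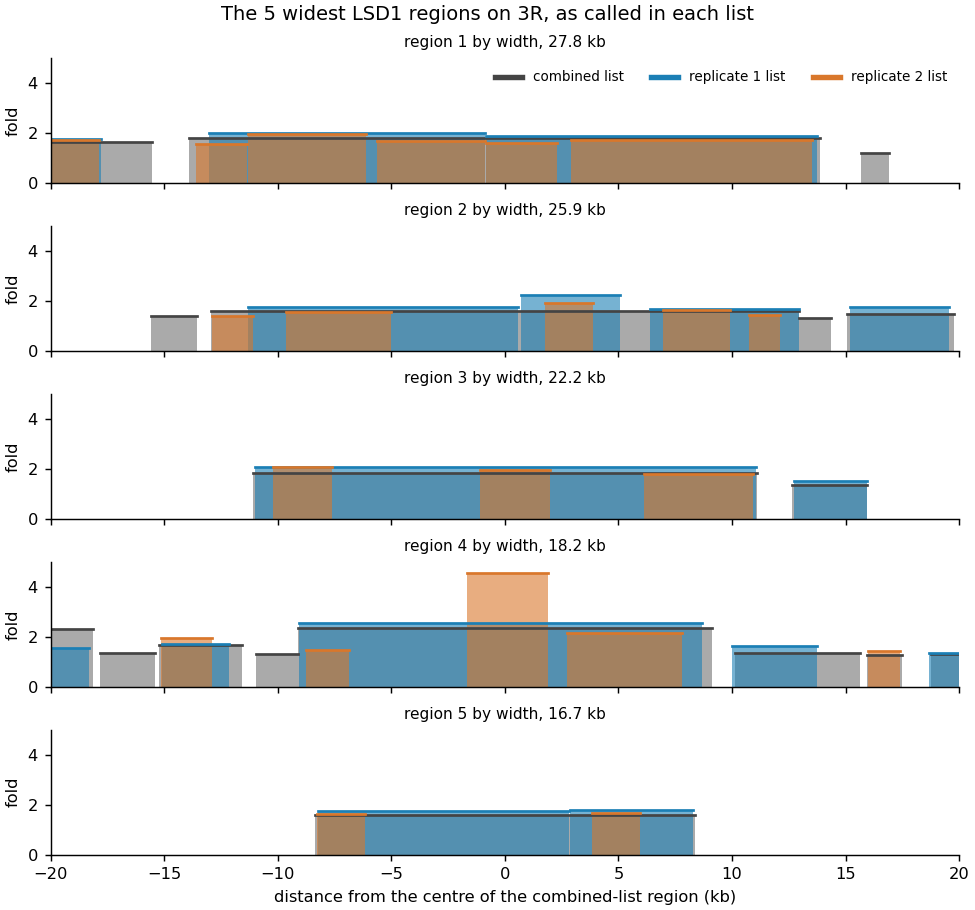
The 5 widest LSD1 regions on 3R, each centred on the combined-list region (horizontal axis, distance from its centre in kb), with bar height giving the fold of every region called there in the combined list, replicate 1 and replicate 2, on each list's own scale. Blue bars of replicate 1 span most of each region, while the orange bars of replicate 2 are shorter pieces, 1 of which stands out at 4.56-fold in the region of 18.2 kb.

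At least 1 replicate list held 862 of the 1831 regions, or 47.1% (exact binomial interval 44.8% to 49.4%, counting error only), where held means that at least 1 base is shared. Over the whole series this share was 47.9%, so the arm did not stand far from it. Both replicates held 335 regions (18.3%, and 18.3% over the series as well), replicate 1 alone 389 (21.2%) and replicate 2 alone 138 (7.54%). The other 969 (52.9%) met no replicate region and made up 34.3% of the covered bases. For regions held by both, the median width was 3083 bp and the median fold 1.48. Those held by replicate 1 alone had 1979 bp and 1.33-fold, those by replicate 2 alone 1815 bp and 1.33-fold, and those by neither 1271 bp and 1.33-fold. In fold the last 3 groups were therefore alike, and they differed in width. A wider region has more bases that can be shared with a replicate region.

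Overlap with the replicate lists rose steeply at the upper end of the fold. The combined list comes from the same replicates, so this overlap is not independent support for its regions. Of the 184 regions with the highest scores, 10% of the arm, 95.7% were held by at least 1 replicate and 91.8% by both. In the next 10% these shares were 63.4% and 38.8%, and in the following 43.7% and 17.5%. From there down they lay between 33.9% and 42.6% and between 1.64% and 8.20%. By width, the share held by at least 1 replicate was 10.8% below 1301 bp, the narrowest width in either replicate list, 40.4% between that width and 2000 bp, and 82.2% in the class below 3000 bp. Up to 5000 bp 95.4% were held, and of the wider ones 98.97%. With 1 shared base enough, a wider region meets a replicate region more readily by position alone. The part of this in the rise was not tested. The combined list, with a smaller minimum width, holds 583 regions narrower than any the replicate lists contain.

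**Figure D5:**
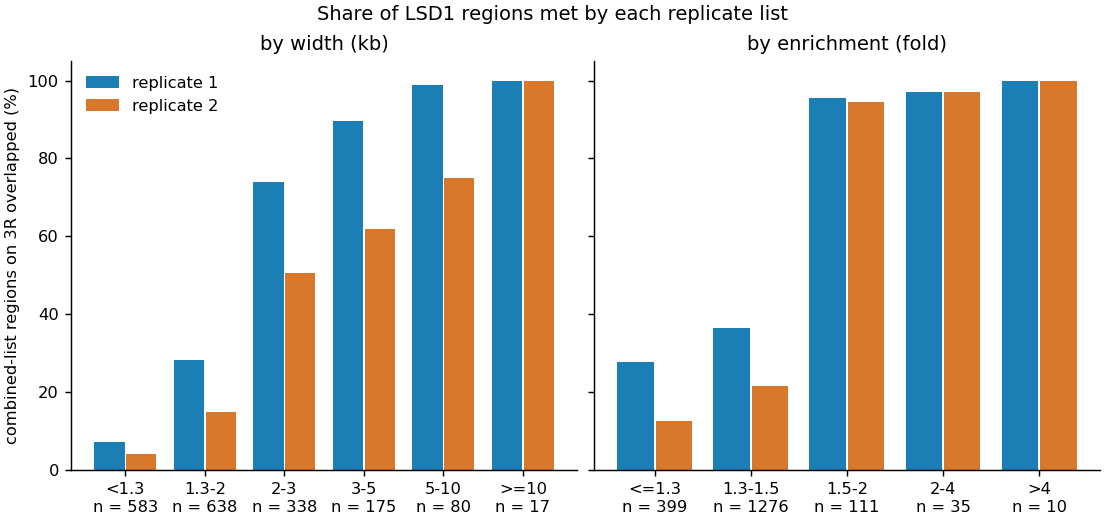
Share of combined-list regions on 3R overlapped by replicate 1 and by replicate 2 (vertical axis, percent), by width in kb (left) and by fold (right), with the number of regions under each pair of bars. Replicate 1 exceeds replicate 2 in the 5 lower width classes, both reach 100% from 10 kb, and both stand above 94% in the 3 classes above 1.5-fold.

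Regions that met no replicate region lay both near and far from one. Of the 969, 25.3% were within 2 kb of one and 40.6% were more than 10 kb away, with a median distance of 6921 bp. The highest of them was 3R:4720700-4721700, at 2.20-fold and 1001 bp, the minimum width of the list. It lay 22.5 kb from the nearest region of replicate 1 and 30.5 kb from that of replicate 2, and was the 1 region above 2-fold that no replicate held. Next were 3R:5523968-5524982 (1.73-fold), 3R:26229608-26230672 (1.65-fold), 3R:7820706-7821760 (1.55-fold) and 3R:14632146-14633152 (1.54-fold), all 1065 bp or narrower.

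Read between the replicates, 375 of the 537 regions of replicate 2 on the arm (69.8%; 68.6% over the series) met a region of replicate 1. In the other direction it was 353 of 792 (44.6%; 43.7% over the series). The replicates together covered 2.32 Mb of the arm and shared 0.733 Mb, or 31.5% of it. Of the shared bases 99.99% were in the combined list. Strong regions were shared almost without exception, with all 69 above 2-fold in replicate 2 and 50 of 51 in replicate 1 met by the other. For 271 regions of the combined list that met exactly 1 region in each list, the centres of the replicate regions were a median of 133 bp apart, and 73.8% were within 500 bp. For the 40 of these above 2-fold the median was 35 bp, and all lay within 454 bp. Replicate scores ranked the 271 regions with a Spearman's rho of 0.63, which was 0.93 among the 40 above 2-fold and 0.40 among the 231 others. These values are across regions of the same 2 libraries, wider regions scored higher in each replicate, and the split used scores from the same samples.

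Few replicate regions were missing from the combined list. It met 767 of the 792 regions of replicate 1 (96.8%; 97.5% over the series) and 517 of the 537 of replicate 2 (96.3%; 96.9% over the series). Among the 25 missing from replicate 1 was the highest score of that list on the arm, 3R:17129511-17130967, 1457 bp at 16.2-fold. Its score reduces to a ratio of 9 to 1 in lowest terms, against 4141 to 1121 for the strongest region of the combined list. It was the 1 region above 2-fold that replicate 2 did not hold, and the nearest regions of the combined list and of replicate 2 were 5.32 and 5.40 kb away. For replicate 2 the highest missing region was 3R:25314312-25315859, at 1.66-fold.

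Both Hox complexes, clusters of the genes that set segment identity, lie on the arm. Positions were rounded values from general knowledge and not from a file. The Antennapedia complex (about 2.48 to 2.83 Mb) had 20 regions, of which both replicates held 4 and the highest reached 1.51-fold. The bithorax complex (about 12.48 to 12.81 Mb) had 19, of which both held 5, up to 1.46-fold. Their densities were 57.1 and 57.6 per Mb, against 70.7 on the arm. Regions covered 10.7% and 9.32% of the complexes, against 15.3% of the arm. On the arm both replicates held 18.3% of the regions, and the complexes have too few regions for their shares to be set against this.

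Beside the other large arms, each without 2 Mb at the centromere end, 3R had 70.7 regions per Mb, against 73.0 on 2L, 73.4 on X, 77.7 on 3L and 88.1 on 2R. Its median gap of 4806 bp was the longest of these 5 by value, the others being 3592 to 4319 bp, while its longest gap, 174 kb, was the shortest, the others being 178 to 295 kb. Neither order held in both replicates. The median gap was longest on 3R in replicate 2 (26593 bp, then 25784 bp on 3L). In replicate 1 it was 9965 bp on 3R and 10499 bp on X. The longest gap on 3R, 335 kb in replicate 1 and 357 kb in replicate 2, was in neither the shortest of the 5. In replicate 2 it was nearly so, with 356566 bp on 3R and 356513 bp on 2L. Median widths ran from 1633 bp on 3R to 1682 bp on X, and median folds from 1.34 on 3R, 2L and 3L to 1.40 on X. In replicate 1 the density on 3R was 30.6 per Mb, below the 30.7 to 41.2 of the other arms, and in replicate 2 it was 20.7, within their 18.4 to 26.9. The share above 2-fold in the combined list was 2.46% on 3R and 2.63% to 4.93% on the other arms. The replicate lists did not place 3R lowest. The share was 6.44% on 3R against 6.17% to 12.8% in replicate 1, and 12.8% against 11.5% to 16.5% in replicate 2. These differences were not tested, as neighbouring regions are not independent and each arm is a single one.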

How the data were processed

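Regions of significant enrichment were deposited by the authors as 1 list per ChIP replicate and 1 combined list. Bowtie 0.12.7 was used, per the submitters' processing notes, and positions refer to FlyBase release 5, per the file headers. The caller, its threshold and the way of combining remain unnamed in the sources used here. The deposited score has no stated unit. In each list 100% of the scores are log2 values of a whole-number ratio multiplied by a list constant (relative tolerance 1e-12, denominators up to 20000), against at most 0.269% with natural or base 10 logarithms. Deposited scores were therefore taken as log2 values, and the fold as 2 to their power. The constants differ (2.13, 1.80 and 2.51), so folds rank regions within a list, and depth remains unknown.

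Starts and ends, the other values of the deposited lists, were used as positions counted from 1. Windows took regions by midpoint. Groups and replicate numbers came from the sample titles. Overlap needed 1 bp. No chance test was run. The members and the rules were chosen with earlier results of these data known. Named are the 10 highest regions held by both replicates, the widest 5, the 5 highest held by neither, the 5 longest runs and empty stretches, the 3 densest and sparsest windows, and the highest replicate region missing from the combined list. The windows of 250 kb, the pairs of strong regions, the longest stretch without a strong region, the stretches named for the replicate lists and the width steps were added after their values were seen. The overlap code was checked on simulated regions. Software was scipy 1.17.1, matplotlib 3.10.9, pandas 2.3.3 and numpy 2.4.6 under Python 3.11.15. Genes, sequence and the input samples on their own were not analysed here, since the available gene table follows release 6 and no conversion was made.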

Additional observations from a re-analysis of the deposited data

How the results depend on the processing

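Of 60 alternatives to 12 results, 24 stayed close to the reported value, meaning within 1 SD between the replicate lists, within the binomial interval of a share, within 1.5 times for a density or count, or within 0.1 for a correlation. For the median gap of 4806 bp that SD was 11758 bp, larger than the value itself. Gaps of 13301 bp with the higher-scoring 50% and 9965 bp in replicate 1 therefore counted as close, which does not make the median gap stable. With the higher-scoring 50% of the regions, the density was 35.4 per Mb, the covered share 9.15%, the median width 1994 bp, the fullest 1 Mb window 60 regions, the longest empty stretch 233 kb and the median 1.39-fold. The share held by at least 1 replicate was then 55.2% and by both 32.6%. With the narrowest width of the replicate lists as a minimum, the covered share was 12.8%, the median width 1987 bp, the longest empty stretch 222 kb and the median 1.339-fold, and 64.0% were held by at least 1 and 26.8% by both. With regions closer than 200 bp merged, the median was 1.346-fold. With overlap of at least 50%, the shares were 44.3% held by at least 1 and 12.5% by both, 34.7% of replicate 1 held by replicate 2 and 65.0% of replicate 2 held by replicate 1. With replicate lists of equal length these last shares were 48.8% and 53.3%. On the whole of 3R all 9 values stayed close.

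With either replicate list alone in place of the combined list, the density was 20.7 to 30.6 per Mb, the covered share 4.15% to 7.65%, the median width 1907 to 1980 bp, the median gap 9965 to 26593 bp, the fullest window 49 to 55 regions, the longest empty stretch 335 to 357 kb and the median 1.526-fold to 1.528-fold. The share held was 25.8% by replicate 2 alone and 39.5% by replicate 1 alone. The cause of these changes was not tested. No paired analysis was possible because no result comes from a test and the input samples have no list. Depth sets no limit that could be computed here, since the lists do not give it.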
